A study of Mus musculus with 9 samples.

Results

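Actb, Actg1, Tmsb4x, Tmsb10, Cfl1 and Pfn1 encode the cytoplasmic actins and the small proteins that bind actin monomers, and these 6 genes of the 52636 in the count table are described here. They were chosen by the counts of Actb, which vary widely between libraries, so the spread of Actb and of genes that move with it is given as a description and supports nothing. The RNA came from cells of the nucleus accumbens of C57BL/6 males that were labelled for ChAT, the acetylcholine-making enzyme, and sorted as cholinergic interneurons. There were 9 libraries in 3 groups of 3. The SUS and RES mice had self-administered cocaine, first under a fixed ratio schedule with at most 40 infusions and then in 10 daily progressive ratio sessions of 23 h at 1.2 mg/kg per infusion. Their brains were collected on day 3 from the end of those sessions. The naive mice had no cocaine, and no sham surgery is stated for them. The labels name no age in any group, and the genotype field holds only the words SUS, RES and WT, with no allele. Each pool of punches came from 2 to 3 mice of a condition. Whether every library had a pool of its own is not stated, and the p-values then cover the spread between libraries, which may be technical. The titles call the groups RES and SUS, while the behavioural field of the labels calls RES susceptible and SUS resilient. The titles and the genotype field call the third group WT, and its behavioural field calls it cocaine-naive. The title names SUS and RES are used as names only, and the WT libraries are called naive.

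Actin is the monomer of the microfilaments that shape dendritic spines, growth cones and the motile processes of glia. Monomers polymerise at one filament end and leave at the other, and the pool of free monomer is held by beta-thymosins, which sequester it, and by profilin, which hands it to growing ends. Cofilin severs and depolymerises old filaments. In brain, beta-thymosin 4 and the cytoplasmic actins are abundant in microglia as well as in neurons. Actb is also a customary loading reference in expression work.

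The coding sequences show which members a short read can tell apart. The coding parts of Actb and Actg1 have 1128 bases each and 128 mismatches, which leaves 88.7% identity with a longest shared run of 62 bases. Tmsb4x and Tmsb10 have 135 coding bases each, 40 mismatches and 70.4% identity, and the longest run they share is 10 bases. Bases 1 to 60 of the actin pair and the whole coding sequence of the thymosin pair are printed below from the GENCODE release M21 transcripts, 5′ to 3′, with capitals at the bases that differ within each pair.
Actb: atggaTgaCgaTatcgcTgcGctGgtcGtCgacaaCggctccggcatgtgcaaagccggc
Actg1: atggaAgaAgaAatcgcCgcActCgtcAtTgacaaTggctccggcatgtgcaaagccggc
Tmsb4x: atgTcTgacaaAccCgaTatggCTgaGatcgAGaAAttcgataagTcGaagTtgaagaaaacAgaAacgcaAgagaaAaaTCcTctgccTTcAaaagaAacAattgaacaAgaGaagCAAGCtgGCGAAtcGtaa
Tmsb10: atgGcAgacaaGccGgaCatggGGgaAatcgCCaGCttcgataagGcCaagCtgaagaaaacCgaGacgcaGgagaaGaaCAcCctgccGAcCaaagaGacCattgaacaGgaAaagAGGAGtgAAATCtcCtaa

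The genes lie on 5 chromosomes of GRCm38. Actb (ENSMUSG00000029580) is at chr5:142903115-142906754 on the minus strand and Actg1 (ENSMUSG00000062825) at chr11:120345690-120348542 on the minus strand. Tmsb4x (ENSMUSG00000049775) is at chrX:167207093-167209315 and Tmsb10 (ENSMUSG00000079523) at chr6:72957347-72958748, both on the minus strand. Cfl1 (ENSMUSG00000056201) is at chr19:5490455-5495201 on the plus strand and Pfn1 (ENSMUSG00000018293) at chr11:70651850-70654644 on the minus strand. Near-identical copies, with at least 95% identity over at least 100 coding bases, had counts of their own for 3 members. The 5 Actg1 pseudogenes held 778 counts over the 9 libraries against 4613 for Actg1, or 16.9%, and 90.4% in RES replicate 3, where Actg1 was lowest. The 4 copies of Tmsb10 held 161 counts against 730, or 22.1%, and 88% in RES replicate 3. The Cfl1 pseudogene Gm6180 held 84 counts against 4590. Cfl1 also overlaps Snx32 on the opposite strand over 2967 bases, and Snx32 held 2399 counts. Strand setting and treatment of multiply mapped reads are not given in the sources used here. In that respect alone Actg1, Tmsb10 and Cfl1 are less certain than Actb, Tmsb4x and Pfn1, for which no such copy or overlap was found.

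Library totals ran from 4471675 to 11155730 counts, and mitochondrial genes took 9.09% to 28.7% of them. Levels are in CPM, read counts divided by library size and scaled by TMM, a trimmed-mean correction for library composition. Scaling factors ran from 0.743 in naive replicate 2 to 1.58 in RES replicate 3. Background is the count density per exonic kb of 1134 olfactory receptor genes, which brain is not expected to transcribe, at 6.07 to 21.2 counts per kb. Ratios to it compare genes per length. The 10 cholinergic interneuron markers stood at a median of 1.04 to 2.07 times background in the 9 libraries, so the labelled cell type was not clearly present in its defining genes. Chat itself, the gene of the sorted marker, was at 1.27, 7.86 and 0.877 times background in SUS, below the value of SUS replicate 2 in each RES library, with 1.38 times in the lowest of them, and at 1.54 to 1.93 times in naive. The 18 microglia markers stood at a median of 1.98 to 52.1 times background.

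Actb, the beta-actin gene, was the most abundant member per length in each of the 9 libraries. It was at 1051, 179 and 1115 CPM in SUS replicates 1 to 3, at 489.5, 177 and 65.7 CPM in RES, and at 437, 754 and 216 CPM in naive. SUS replicates 1 and 3 were the highest of the 9 libraries and RES replicate 3 the lowest, and SUS replicate 2 lay beside RES replicate 2, so the groups overlapped. The raw counts behind these values were 9702, 1612 and 9218 in SUS, 2793, 824 and 505 in RES, and 3279, 2494 and 2338 in naive. Among nuclear genes Actb ranked 16, 378 and 14 in SUS, 51, 515 and 741 in RES, and 29, 34 and 268 in naive, where 1 is the most counted gene. In the lowest library Actb was still 10.7 times background, and in the highest ratio, SUS replicate 1, it was 201 times background.

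Actg1, the other cytoplasmic actin, followed the same broad order over a narrower range. It was at 105, 46.1 and 147 CPM in SUS, at 72.4, 35.9 and 15.0 CPM in RES, and at 52.4, 108 and 52.3 CPM in naive. The groups overlapped here too. Per kb of exon, the Actb level was 9.93, 3.84 and 7.51 times that of Actg1 in SUS, 6.71, 4.90 and 4.36 times in RES, and 8.28, 6.93 and 4.11 times in naive. The pair therefore did not vary in proportion: the ratio ranged 2.58-fold, and it was below 5 in the 4 libraries with the lowest Actb.

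Tmsb4x, the X-linked beta-thymosin that sequesters actin monomers, had the widest range of the 6 genes. It was at 267, 25.3 and 282 CPM in SUS, at 134, 12.7 and 9.10 CPM in RES, and at 129, 231 and 33.5 CPM in naive. Values split into 5 libraries at 129 CPM or more and 4 at 33.5 CPM or less, and each group had libraries on both sides. Relative to background these were 100.1, 9.27 and 91.1 times in SUS, 44.2, 5.38 and 2.90 times in RES, and 43.2, 91.8 and 12.5 times in naive.

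Tmsb10, the second beta-thymosin, was near background in the lower libraries. It was at 14.4, 9.09 and 23.0 CPM in SUS, at 12.6, 6.01 and 3.25 CPM in RES, and at 8.67, 14.5 and 8.05 CPM in naive. Its count was 25 in RES replicate 3, where it stood at 1.11 times background, and 190 in SUS replicate 3, at 7.97 times. Per kb, the Tmsb4x level was 17.3, 2.59 and 11.4 times that of Tmsb10 in SUS, 9.86, 1.96 and 2.61 times in RES, and 13.8, 14.8 and 3.87 times in naive. This ratio ranged 8.81-fold, the widest of the ratios computed between members, so the thymosins varied far out of proportion to each other.

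Cfl1 (cofilin, which severs filaments) stayed nearly in proportion to Pfn1 (profilin, which loads monomers onto growing ends) and to Actg1. Cfl1 was at 116, 34.7 and 149 CPM in SUS, at 70.5, 34.8 and 16.1 CPM in RES, and at 61.1, 112 and 42.3 CPM in naive. Pfn1 was at 46.8, 13.7 and 49.1 CPM in SUS, at 24.4, 14.2 and 8.32 CPM in RES, and at 22.9, 37.5 and 14.3 CPM in naive. The CPM ratio of Cfl1 to Pfn1 ranged 1.57-fold over the libraries and that of Cfl1 to Actg1 1.55-fold, against 4.28-fold for Tmsb4x to Actb.

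**Figure D1:**
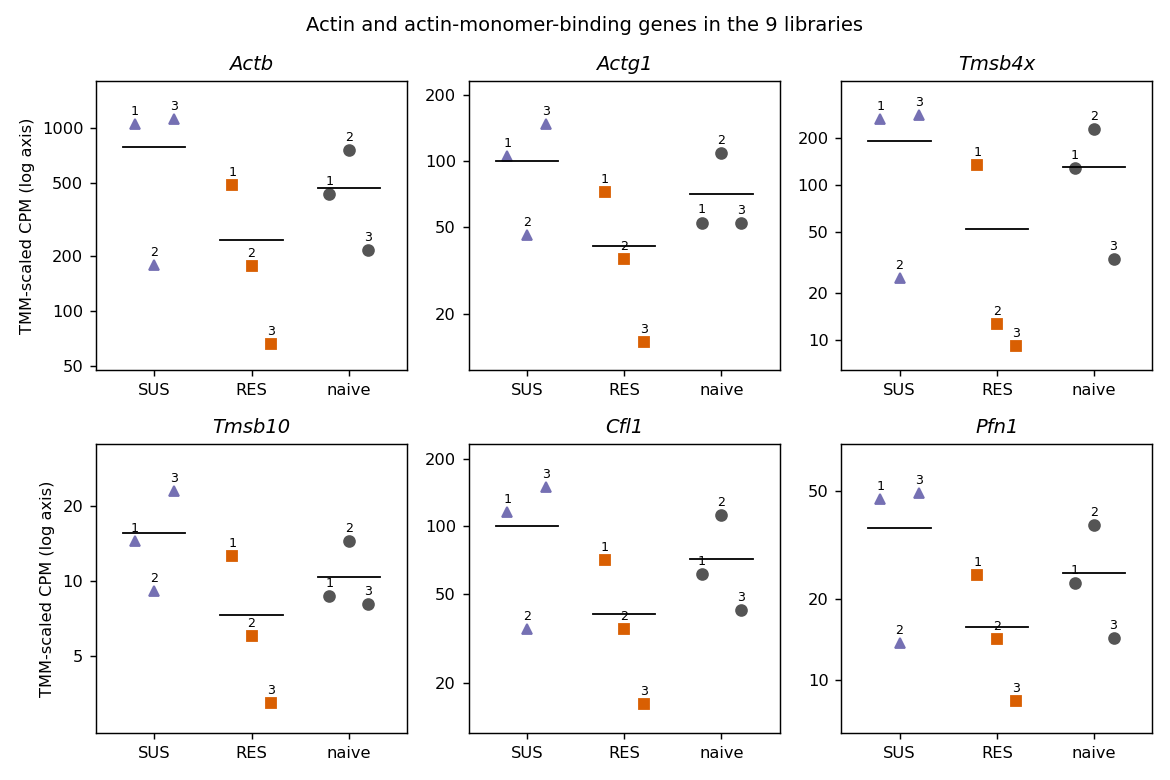
CPM of the 6 genes (log axis) in the 9 libraries, with the replicate number at each point and a line at each group mean. SUS replicates 1 and 3 are high and SUS replicate 2 is low in each panel except that for Tmsb10, where SUS replicate 2 at 9.09 CPM is above 2 of the naive libraries, and RES replicate 3 is the lowest point of each panel.

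Together the 6 genes summed to 1600.2, 308 and 1765 CPM in SUS libraries, 803, 281 and 117 CPM in RES libraries, and 711, 1257 and 367 CPM in naive libraries. Actb made up 55.9% to 65.7% of that sum. From the lowest to the highest library the range was 17.0-fold for Actb, 9.85-fold for Actg1, 31.0-fold for Tmsb4x, 7.07-fold for Tmsb10, 9.24-fold for Cfl1 and 5.90-fold for Pfn1. RES replicate 3, the lowest library, carries the largest scaling factor. With counts divided by the library total alone the ranges were 11.1-fold for Actb, 6.42-fold for Actg1, 22.4-fold for Tmsb4x, 4.6-fold for Tmsb10, 6.02-fold for Cfl1 and 3.84-fold for Pfn1.

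The spread lay mainly within groups. The standard deviation of log2 CPM over the 9 libraries was 1.94 for Tmsb4x, 1.37 for Actb, 1.03 for Cfl1, 0.987 for Actg1, 0.88 for Pfn1 and 0.795 for Tmsb10, against a median of 0.32 over the 14443 genes averaging at least 10 CPM. Of those genes, 12 spread more than Tmsb4x and 102 more than Actb. Differences between groups held 31.1% to 40.2% of each member's sum of squares, against 17.2% for the median gene. Within SUS alone Actb ranged 6.24-fold and Tmsb4x 11.2-fold, within RES 7.45-fold and 14.7-fold, and within naive 3.48-fold and 6.89-fold.

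The genes whose profile over the 9 libraries lay closest to Actb were named by the root mean square (RMS) difference of centred log2 CPM, a measure of likeness for which the median gene stood at 1.28. Among the nearest were the ribosomal RNA model CT010467.1 (RMS difference 0.156), Fth1 (0.157), Pabpc1 (0.205), Mcl1 (0.207), Cotl1 (0.225), Marcks (0.230) and Rhob (0.231). Cotl1 encodes a coactosin-like filament-binding protein, Marcks an actin-binding substrate of protein kinase C and Rhob a small GTPase. Each of these 7 was lowest in RES replicate 3 and highest in SUS replicate 3, as Actb was.

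The other members were not among those genes, which were picked as the nearest, so their larger distance from Actb follows from the choice. Cfl1 was the member nearest to Actb, at 0.346 and rank 50 among all genes. Tmsb4x was the farthest, at 0.653 and rank 447, although it put the 9 libraries in the same order as Actb. The RMS difference also grows where genes differ in range. Actg1 and Cfl1 lay 0.194 apart, Cfl1 and Pfn1 0.198, Actg1 and Tmsb10 0.228, and Tmsb4x and Tmsb10 1.19. The nearest genes to Actg1 were Rpl13 (0.0841), Rps2 (0.0859) and Ppp1ca (0.113), and those to Cfl1 were Pnrc1 (0.0761) and Rgs2 (0.103). Tmsb10 was nearest to Rpl36 (0.146), Rpl6 (0.159) and Nsa2 (0.173), and Pfn1 to Itgb1 (0.105), Cttnbp2nl (0.110) and Srgap2 (0.112). Tmsb4x lay apart from that company, with Ctsd (0.306), Nfkbia (0.320) and Sparc (0.326) as its nearest genes.

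Marker genes of microglia moved with the members. The 18 microglia markers summed to 5119, 349 and 7080.2 CPM in SUS, to 2268, 187 and 272 CPM in RES, and to 2259, 4153 and 412 CPM in naive, and 0 of the 18 was at 0 in any library. Ordered by Actb, by Tmsb4x or by this sum, the first 7 libraries were the same: SUS replicates 3 and 1, naive replicate 2, RES replicate 1, naive replicates 1 and 3, and SUS replicate 2. RES replicates 2 and 3 came last in a different order, since RES replicate 2 had the lower marker sum. RES replicate 1 and naive replicate 1 had sums of 2268 and 2259 CPM, and beside them Actb at 489.5 and 437 CPM and Tmsb4x at 134 and 129 CPM.

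The members differed in how far their levels stayed in proportion to that sum. A gene of narrower range than the sum, divided by it, ranges widely even where both order the libraries alike. Tmsb4x divided by the microglia sum ran from 0.0334 to 0.0813, a 2.43-fold range while the sum itself ranged 37.9-fold. For Actb the quotient ranged 6.02-fold, for Cfl1 8.85-fold, for Actg1 9.36-fold, for Pfn1 10.9-fold and for Tmsb10 11.4-fold. RES replicate 2 had the highest quotient for each of these 5 genes. Fewer cells of a type and less RNA per cell cannot be told apart in bulk libraries. The part of microglia in the differences of the 6 genes was not tested.

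The mitochondrial share of counts also moved with the members. It was 26.2%, 15.9% and 17.7% in SUS, 28.7%, 11.5% and 9.09% in RES, and 19.2%, 27.0% and 17.1% in naive. The 4 libraries with the lowest Actb had the 4 lowest shares, although SUS replicate 3, with the highest Actb, stood just above them. With mitochondrial genes left out of the counts, 5 of 6 members still lay under an unadjusted 0.05 in SUS against RES, as with them. In that fit 1522 of 39444 genes lay under 0.05 with SUS higher. The part of RNA quality in the members' differences was not tested.

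Other marker lists moved less. The 10 oligodendrocyte markers summed to 514 to 2261 CPM in SUS, 258 to 774 CPM in RES and 361 to 1405 CPM in naive, the 13 border and blood macrophage markers to 213 to 581 CPM, 168 to 287 CPM and 294 to 378 CPM in the same order, and the 12 astrocyte markers to 1495 to 2187 CPM, 818 to 4052 CPM and 1248 to 3841 CPM. Medium spiny neuron markers summed to 763 to 3053 CPM in SUS, 884 to 2952 CPM in RES and 1620.0 to 2999.9 CPM in naive. The 10 cholinergic markers, the labelled cell type, summed to 117 to 207 CPM in SUS, 127 to 156 CPM in RES and 115 to 145 CPM in naive, a 1.80-fold range against 15.0-fold for the 6 genes together. SUS replicate 2 had the highest cholinergic sum and ranked 7 or 8 of the 9 libraries for 5 of the 6 members, all but Tmsb10. That highest sum rests mainly on Chat. Chat was at 11.6, 73.5 and 9.31 CPM in SUS and at 14.4, 20.2 and 20.3 CPM in RES. In naive it was at 16.8, 13.3 and 17.8 CPM. The other 9 cholinergic markers summed to 134 CPM in SUS replicate 2, against 135 CPM in RES replicate 3. Among these 9, Isl1 and Slc18a3 were also highest in SUS replicate 2. Isl1 was at 23.2 CPM there and next highest in RES replicate 3, at 19.8 CPM. Slc18a3 ranged 5.22-fold over the libraries, at a mean of 0.857 times background. The remaining markers were highest in other libraries, and Slc5a7 was lowest in SUS replicate 2, at 8.98 CPM.

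**Figure D2:**
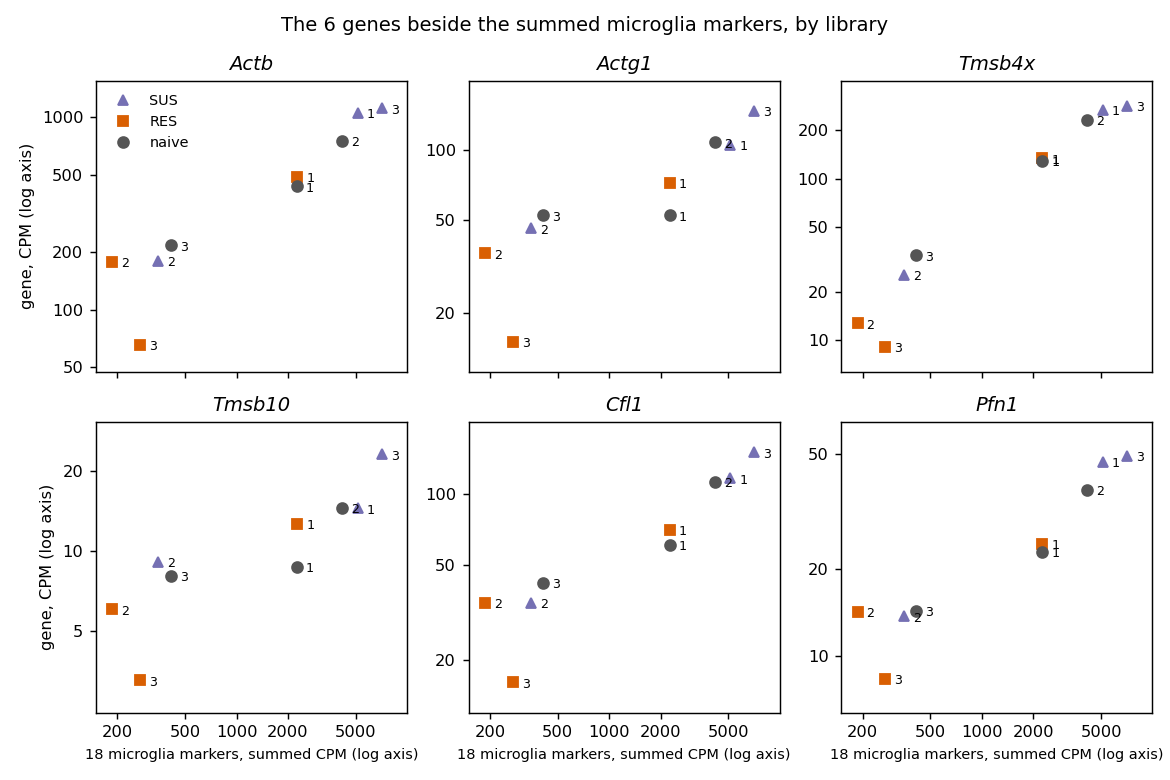
CPM of each of the 6 genes (vertical, log axis) against the summed CPM of 18 microglia markers (horizontal, log axis), 1 point per library with its replicate number. Libraries farther right lie higher in most cases, over the widest range for Tmsb4x, and RES replicate 3 lies below RES replicate 2 although its marker sum, 272 CPM, is above the 187 CPM of RES replicate 2.

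In SUS against RES the fitted values of 6 of 6 members were higher in SUS, and 0 of 6 passed the edgeR quasi-likelihood F test after Benjamini-Hochberg adjustment, where 0% of the 39210 genes tested passed. Actb averaged 781 ± 523 CPM in SUS and 244 ± 219.8 CPM in RES (SD, n = 3 each). Its log2 fold change was 1.68 (SE 0.779, 95% interval 0.02 to 3.34), with an edgeR adjusted p of 0.87. Tmsb4x averaged 192 ± 144 CPM in SUS and 51.8 ± 70.9 CPM in RES, and its log2 fold change was 1.89 (SE 0.970, interval -0.18 to 3.95), with an edgeR adjusted p of 0.875. Before adjustment the edgeR p was 0.0479 for Actb and 0.0708 for Tmsb4x. Neither gene passed after adjustment over all genes tested, and the groups overlapped for both genes.

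For the other members the log2 fold changes in SUS against RES were 1.28 for Actg1 (SE 0.529), 1.10 for Tmsb10 (0.425), 1.31 for Cfl1 (0.562) and 1.23 for Pfn1 (0.474), with edgeR adjusted p of 0.87 for each. Before adjustment 5 of the 6, Tmsb4x being the exception, lay under 0.05, while 4.01% of all genes did so with SUS higher and 1.67% with SUS lower. The 6 genes rise and fall in the same libraries, so they do not count as separate observations, and Actb was listed for its spread in these libraries. The count of 5 fell to 0 of 6 when RES replicate 2, RES replicate 3 or SUS replicate 3 was left out, and to 1 without SUS replicate 1. Genes under 0.05 with SUS higher then numbered 922 of 41381, 794 of 40449, 520 of 40222 and 1185 of 40802, in that order. The member count was 6 without RES replicate 1 (1885 of 41550 genes under 0.05 with SUS higher) or SUS replicate 2 (3087 of 40455). It was 4 with DESeq2 (1337 of 39210) and 1 with limma-voom (1698 of 39210). Without RES replicate 1 the log2 fold change was 2.68 for Actb and 4.12 for Tmsb4x, and without RES replicate 3 it was 1.23 and 1.38. Without RES replicate 1 it was 1.96 for Actg1, 1.76 for Tmsb10 and 1.96 for Cfl1. With the replicate number as a block over all 9 libraries, 6 of 6 members lay under 0.05 unadjusted, Tmsb4x included at a log2 fold change of 2.63 (SE 1.07), and the edgeR adjusted p was 0.912 for each. In that fit 1380 of 39210 genes lay under 0.05 with SUS higher and 615 with SUS lower. The block also joins naive libraries to the others by number, although their numbers were taken as names. In same-numbered libraries Actb, Actg1, Tmsb4x and Tmsb10 were higher in SUS in 3 of 3 pairs. Actb in replicate 2 differed only as 179 CPM in SUS against 177 CPM in RES. Cfl1 and Pfn1 were lower in SUS in replicate 2, at 34.7 against 34.8 CPM and 13.7 against 14.2 CPM. The labels state no pairing, and joining SUS and RES by number is only a possible reading of these same counts. The values of 0 of 6 members separated the groups, against 3.41% of all genes with SUS higher and 4.22% with SUS lower. The median log2 fold change was 1.29 for the 6 genes and 0.01 for all genes tested, and for the 18 microglia markers it was 2.09, with 18 of 18 higher in SUS and 0 called. Oligodendrocyte markers were fitted higher in SUS for 10 of 10, with a median of 1.14 and 6 under 0.05 unadjusted, and border and blood macrophage markers for 11 of 13, with a median of 0.76 and 6 under 0.05, with 0 of either called. The part of these cells in the members' differences was not tested.

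In RES against naive the fitted values of 6 of 6 members were lower in RES and 0 of 6 passed edgeR's test, where 0% of all genes passed. Actb averaged 244 ± 219.8 CPM in RES and 469 ± 270.2 CPM in naive (SD, n = 3 each), which is -0.94 on the log2 scale (SE 0.766, interval -2.57 to 0.69). Tmsb4x averaged 51.8 ± 70.9 CPM in RES and 131 ± 98.7 CPM in naive, which is -1.33 on that scale (SE 0.957, interval -3.37 to 0.71). Actg1 was at -0.78 (SE 0.527), Tmsb10 at -0.48 (0.440), Cfl1 at -0.82 (0.560) and Pfn1 at -0.65 (0.479) on the log2 scale, and the edgeR adjusted p was 1 for all 6. Unadjusted, 0 of 6 lay under 0.05, against 0.441% of genes lower and 0.479% higher in RES, and 0 of 6 separated the groups, against 2.82% of genes lower and 3.31% higher. RES replicate 1 decided the size of these values: without it Actb stood at -1.95, Tmsb4x at -3.58, Actg1 at -1.47, Tmsb10 at -1.15 and Cfl1 at -1.49, and 6 of 6 lay under 0.05 unadjusted. In that fit 608 of 41550 genes lay under 0.05 with RES lower and 217 with RES higher. Without naive replicate 2 Actb stood at -0.42 and Tmsb4x at -0.65. Microglia markers were lower in RES for 18 of 18, with a median of -1.29.

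In SUS against naive 6 of 6 fitted values were higher in SUS and 0 of 6 passed edgeR's test, with 0% of all genes called. Actb averaged 781 ± 523 CPM in SUS and 469 ± 270.2 CPM in naive (SD, n = 3 each), which is 0.74 on the log2 scale (SE 0.763, interval -0.89 to 2.36). The others were at 0.49 for Actg1 (SE 0.521), 0.55 for Tmsb4x (0.939), 0.62 for Tmsb10 (0.415), 0.48 for Cfl1 (0.553) and 0.58 for Pfn1 (0.466), and the edgeR adjusted p was 1 for all 6. Unadjusted, 0 of 6 lay under 0.05, against 1.71% of genes higher and 1.42% lower in SUS, and 2 of 6 did so without SUS replicate 2. In that fit 2068 of 40455 genes lay under 0.05 with SUS higher and 1508 with SUS lower. The groups were separated by 0 of 6 members, against 3.85% of genes with SUS higher and 4.15% with SUS lower. Leaving out SUS replicate 3 brought Actb to 0.39, Actg1 to 0.10 and Cfl1 to 0.08. Leaving out naive replicate 2 brought Actb to 1.25 and Tmsb4x to 1.23, and leaving out naive replicate 3 brought Tmsb4x to 0.09. Microglia markers were higher in SUS for 18 of 18, with a median of 0.84.

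For all 6 cocaine libraries against naive no direction held. Actb averaged 513 ± 464 CPM in cocaine libraries (SD, n = 6) and 469 ± 270.2 CPM in naive libraries (SD, n = 3), a log2 fold change of 0.13 (SE 0.736, interval -1.44 to 1.70). Tmsb4x averaged 122 ± 127 CPM in cocaine libraries and 131 ± 98.7 CPM in naive libraries, a log2 fold change of -0.10 (SE 0.900). Fitted values were higher for 3 members and lower for 3, and their signs turned with single libraries: Tmsb4x stood at 0.58 without naive replicate 2 and at -0.56 without naive replicate 3. In edgeR 0 of 6 were called, with 0% of all genes, and 0 of 6 lay under 0.05 unadjusted, against 0.9% of genes higher and 0.479% lower. The groups were separated by 0 of 6, against 0.617% of genes higher and 0.553% lower in cocaine libraries. Microglia markers, unlike the members, were fitted in a single direction, higher in cocaine libraries for 18 of 18, with a median of 0.16 and 0 called. The Actb interval is wide on both sides of 0, so a difference was not detectable at this spread. The 3 comparisons with naive share its libraries, and the 2 cocaine groups enter more than 1 comparison.

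**Figure D3:**
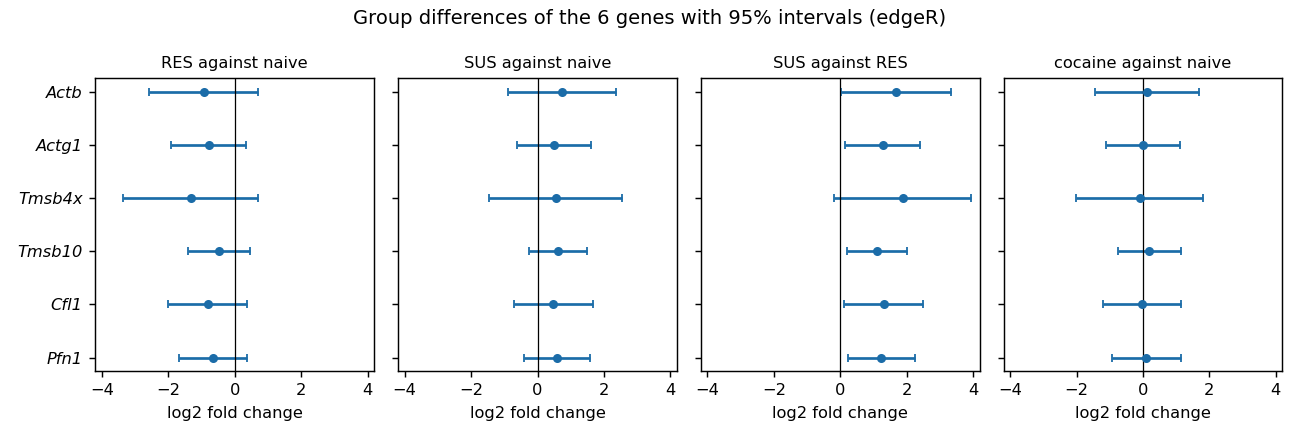
Log2 fold change of the 6 genes (points) with 95% intervals from edgeR (bars), 1 panel per comparison, where values above 0 are higher in the group named first. Intervals cross 0 in each panel except for 5 genes of SUS against RES, where that of Actb starts at 0.02.

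The closest paralogues of the members summed to nearly the same level in all 9 libraries. The 14 listed (muscle and enteric actins, Tmsb15 genes, Cfl2, Dstn, Pfn2, Pfn3 and Pfn4) summed to 109 to 140.3 CPM in SUS, 103 to 129.9 CPM in RES and 108 to 140.2 CPM in naive, a 1.36-fold range. Of the 10 that passed the filter on low counts, 6 were fitted higher and 4 lower in SUS than in RES with a median log2 fold change of 0.08, and 0 were called. Pfn3 was at 0 counts in all libraries. Several of the others sat near background, with Cfl2 at a mean of 1.05 times and Pfn4 at 1.33 times.

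Within the cofilin and profilin families the paralogues could be set side by side. Pfn2, the profilin that prevails in neurons, was at 39.0, 32.7 and 27.1 CPM in SUS, at 31.7, 43.2 and 17.0 CPM in RES, and at 25.2, 35.1 and 35.4 CPM in naive. Its highest library was RES replicate 2, where Pfn1 was among the lower ones. Dstn, the depolymerising factor related to cofilin, was at 34.2, 10.5 and 37.0 CPM in SUS, at 26.1, 18.5 and 7.93 CPM in RES, and at 17.3, 32.9 and 15.8 CPM in naive. Its 4.66-fold range and its order of libraries were closer to those of Cfl1. Its log2 fold change in SUS against RES was 0.65 (SE 0.461), with an edgeR adjusted p of 0.918.

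**Figure D4:**
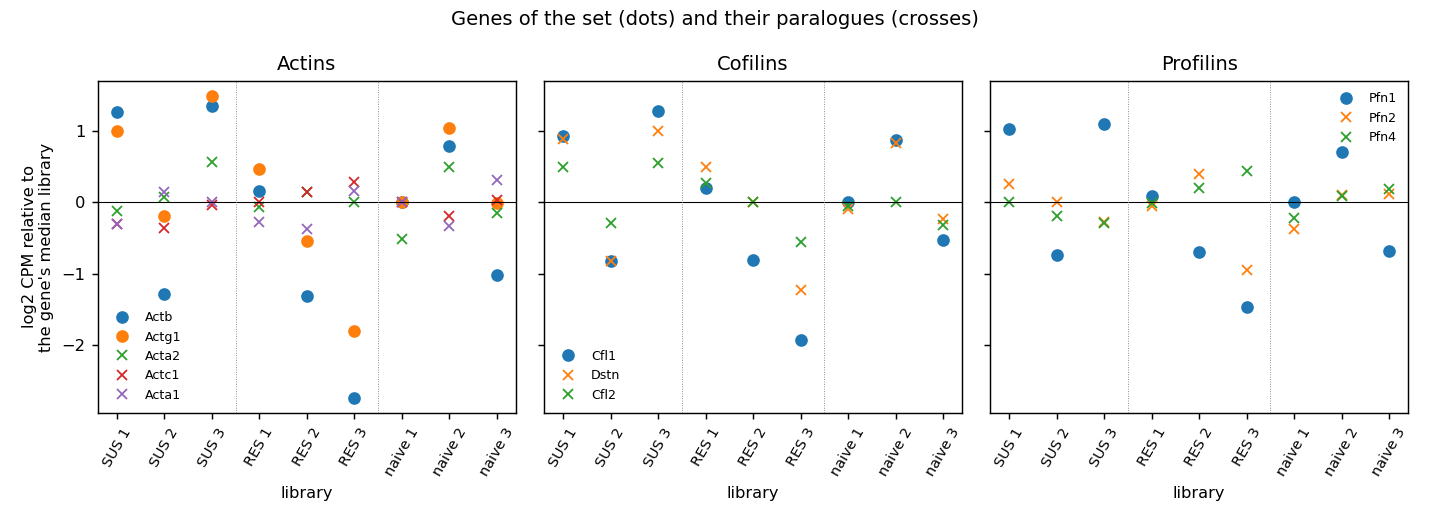
Log2 CPM of each gene relative to its own median over the 9 libraries, for cytoplasmic actins, Cfl1 and Pfn1 (dots) and their paralogues (crosses), with libraries grouped as SUS, RES and naive. Dots spread over more of the axis than crosses, except that Dstn lies near Cfl1 in most libraries.

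Genes that act on the filaments were read from lists, with counts of fitted directions in SUS against RES beside the 51.2% of all genes that were fitted higher in SUS and the 4.01% that lay under 0.05 unadjusted with SUS higher. Of the 10 subunits of the Arp2/3 complex, which nucleates branches, 9 were fitted higher in SUS and 1 lower, with a median log2 fold change of 0.72, 2 under 0.05 unadjusted and 0 called. Arpc1b, the subunit form prominent in blood and immune cells, averaged 44.2 ± 28.4 CPM in SUS and 15.7 ± 6.98 CPM in RES (SD, n = 3 each), a log2 fold change of 1.49 (SE 0.497) with an edgeR adjusted p of 0.87. Arpc4 averaged 36.8 ± 12.9 CPM in SUS and 19.2 ± 5.08 CPM in RES, a log2 fold change of 0.94 (SE 0.34). Arpc1a, the sister form of Arpc1b, ranged 1.98-fold over the libraries against 6.80-fold for Arpc1b, and Actr3b 1.83-fold against 4.43-fold for Actr3. Actr2 ranged 9.0-fold.

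Of 28 genes for disassembly, capping and monomer handling, 23 were fitted higher in SUS than in RES and 5 lower, with a median log2 fold change of 0.46, 7 under 0.05 unadjusted and 0 called. The coronin Coro1a of immune cells averaged 46.2 ± 19.7 CPM in SUS and 19.5 ± 5.24 CPM in RES (SD, n = 3 each), a log2 fold change of 1.25 (SE 0.403), and Cotl1 60.2 ± 42.3 CPM in SUS and 19.1 ± 16.2 CPM in RES, a log2 fold change of 1.66 (SE 0.627). Coro1b averaged 42.5 ± 19.2 CPM in SUS and 22.9 ± 7.25 CPM in RES, a log2 fold change of 0.89 (SE 0.369). Of 29 nucleation promoters and formins 21 were fitted higher and 8 lower, with a median of 0.19 and 6 under 0.05 unadjusted, led by Vasp at 1.75 (SE 0.587), Wasf2 at 1.35 and Nckap1l, the blood cell form of a WAVE complex subunit, at 1.44. Of 23 cross-linkers and membrane linkers 16 were fitted higher and 7 lower, with a median of 0.26 and 5 under 0.05 unadjusted, among them Fscn1 at 1.26, Tpm4 at 0.92 and Lcp1, the plastin of leukocytes, at 1.34. In RES against naive the median log2 fold change was -0.42 for the Arp2/3 complex, and in SUS against naive it was 0.34. The edgeR test called 0 genes of these lists in any of the comparisons.

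SRF, the transcription factor whose coactivators sense free actin, had smaller fitted differences than the members. Srf averaged 42.0 ± 5.98 CPM in SUS and 35.8 ± 12.1 CPM in RES (SD, n = 3 each), a log2 fold change of 0.23 (SE 0.326, edgeR adjusted p = 0.976). Mrtfb averaged 140.4 ± 83.1 CPM in SUS and 143 ± 61.9 CPM in RES, a log2 fold change of -0.03 (SE 0.462). It was highest in SUS replicate 2, at 235 CPM, and lowest in SUS replicate 3, at 77.7 CPM, the library with the most Actb. The 4 listed genes found in the count table had a median log2 fold change of -0.00 in SUS against RES. Among them Abra stood below background, at a mean of 0.865 times.

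**Figure D5:**
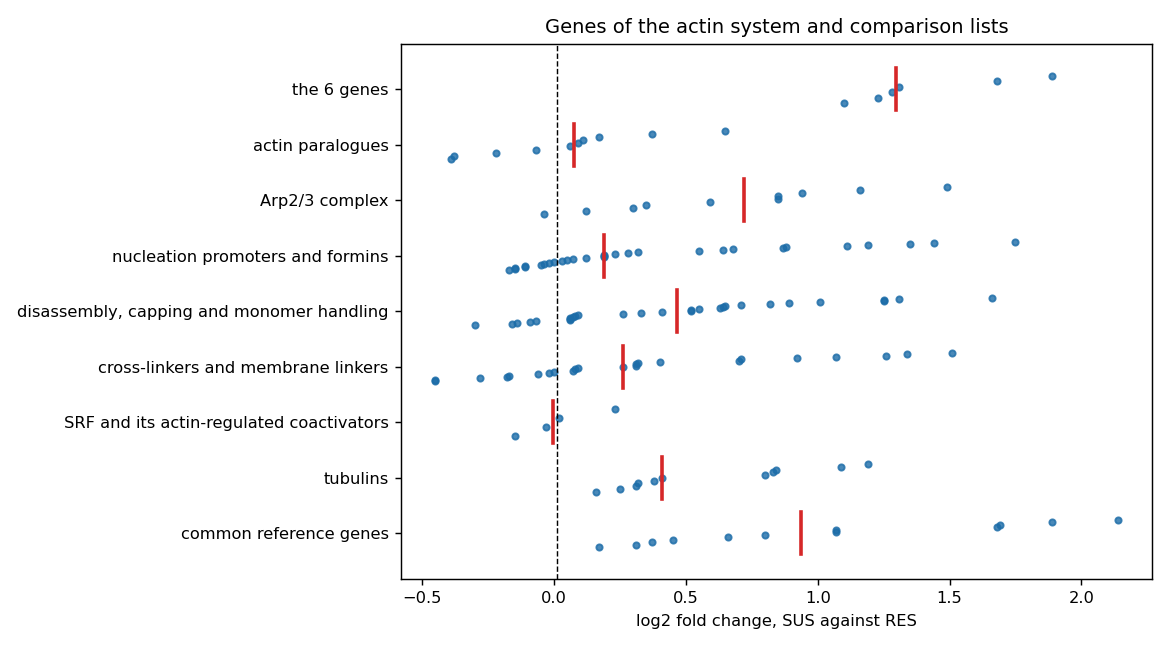
Log2 fold change in SUS against RES (horizontal axis) of each gene tested (points) in the 6 genes and 8 comparison lists, with the list median as a red bar and the median of all genes, 0.01, as a dashed line. The median of the 6 genes is 1.29, those of the comparison lists lie between -0.00 and 0.94, and 0 of the genes plotted passed the adjusted threshold.

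SRF binds a promoter element, the CArG box, that many actin genes carry, so the promoter windows of the members were searched. RefSeq windows on GRCm38.p6 of 250 bases before to 50 bases after the start were matched by symbol for 5 of the 6 members, all but Actb. A CArG box was found in Actg1, with its first base at position -90 from the start, and in 0 of the windows of Tmsb4x, Tmsb10, Cfl1 and Pfn1. Of all 32544 promoter windows, 1.64% held a CArG box. Both strands were read for the other motifs, where TATAAA was in 13.6% of all windows, GGGCGG in 35.9% and CCAAT in 37.4%, and the motifs may overlap themselves or each other. TATAAA was in 0 of the members' windows, GGGCGG in a window of each of the 5 and CCAAT in those of Actg1 and Cfl1. The 250 bases before the start are printed for Actg1, which alone holds the CArG box, for Tmsb4x, with the widest range, and for Pfn1, with the narrowest, 5′ to 3′ along the gene, with capitals at the motifs found. They lie at chr11:120348496-120348745, chrX:167209219-167209468 and chr11:70654651-70654900, all on the minus strand. Overlapping matches of GGGCGG in Actg1 appear as a single run.
Actg1: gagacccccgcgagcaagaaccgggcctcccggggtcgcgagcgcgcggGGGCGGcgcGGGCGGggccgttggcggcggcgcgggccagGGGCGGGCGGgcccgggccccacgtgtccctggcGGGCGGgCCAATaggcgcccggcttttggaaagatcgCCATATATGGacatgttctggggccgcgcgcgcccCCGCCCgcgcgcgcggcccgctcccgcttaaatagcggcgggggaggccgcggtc
Tmsb4x: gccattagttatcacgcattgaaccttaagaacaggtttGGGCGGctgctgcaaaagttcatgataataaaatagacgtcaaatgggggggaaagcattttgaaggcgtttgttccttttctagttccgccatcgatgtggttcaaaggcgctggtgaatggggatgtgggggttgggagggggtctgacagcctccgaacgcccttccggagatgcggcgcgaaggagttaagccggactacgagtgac
Pfn1: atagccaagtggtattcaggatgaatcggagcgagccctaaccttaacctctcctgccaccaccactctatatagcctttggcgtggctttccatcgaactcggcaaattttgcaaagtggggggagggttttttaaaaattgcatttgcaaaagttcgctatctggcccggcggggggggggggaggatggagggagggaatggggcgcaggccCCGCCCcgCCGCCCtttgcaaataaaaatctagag

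Other genes used as references for expression shared the range of Actb or escaped it, gene by gene. The 12 common reference genes summed to 562 to 2154 CPM in SUS, 278 to 962 CPM in RES and 625 to 1463 CPM in naive. Eef1a1, a translation elongation factor, ranged 23.2-fold over the libraries and B2m, the light chain of MHC class I, 35.0-fold, both more than Actb. Rplp0 ranged 10.1-fold. Gapdh ranged 2.95-fold, Sdha 2.81-fold, Pgk1 1.85-fold and Tbp 1.76-fold, although Tbp stood at a mean of only 1.20 times background. In SUS against RES 12 of 12 were fitted higher in SUS with a median log2 fold change of 0.94, 7 lay under 0.05 unadjusted and 0 were called. The 11 tubulins, the monomers of microtubules, ranged 4.36-fold in sum, and 11 of 11 were fitted higher in SUS than in RES, with a median of 0.41 and 0 called.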

How the data were processed

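RNA of ChAT-sorted accumbens cells was sequenced in 9 libraries. The deposited table holds raw read counts per Ensembl gene, whole numbers with no scaling, and its columns were matched to samples by their titles. The authors' tools are FastQC, STAR 2.5.2b, HTSeq, DESeq and DESeq2 with the build GRCm38, per the submitters' processing notes, with no role or order. Annotation release, strand setting and read length are not given in the sources used here. The extraction label is cut short, so library construction is not described.

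Symbols and positions came from GENCODE M21 (52489 of 52636 IDs) and a table of gene names (52403), and 147 IDs matched neither. After the filterByExpr filter and TMM scaling, 39210 genes entered the quasi-likelihood F test of edgeR 4.0.16 (R 4.3.3), adjusted by Benjamini-Hochberg over all of them at 0.05. A single 3-group fit gave the pairwise comparisons, and a 2-group fit set cocaine against naive. A standard error is the fold change over the square root of F. Likeness used log2 CPM with a prior count of 2. Alternatives were other scalings, no filter, DESeq2 1.42.0, limma-voom with sample weights (limma 3.58.1), the replicate number as a block and leaving out each library. The procedure was tested on simulated data.

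The members, gene lists, markers and tests were chosen with earlier results of these data known. Named genes are the members, the 8 nearest to Actb and 3 nearest to each other member, and up to 3 of each list by smallest p in a comparison, and some genes and a list that this rule takes are not reported here. Other genes given by their range over libraries (such as Pfn2, Actr3b, Mrtfb and most of the common reference genes) were chosen after their values were seen.

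Deviations from the group means of same-numbered SUS and RES libraries correlated at 0.119 to 0.439 across genes, and each RES library was closest to the SUS library of its number, while SUS replicate 3 was closest to RES replicate 1 (0.343). All 3 pairs passed 0.1, but that cutoff does not mark a pairing, since libraries of unlike number passed it too. Those reached 0.343 between SUS and RES and 0.662 between naive replicate 3 and SUS replicate 2. Pairing SUS and RES by number is therefore only a possible reading of these counts, which the labels do not state and the correlations cannot settle. With naive libraries of the same number the correlations were -0.488 to 0.0725, and the numbers were taken as names. The counts of calls did not change with the block.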

Additional observations from a re-analysis of the deposited data

How the results depend on the processing

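Signs of the 6 genes were the same in 96 of 96 combinations of gene and alternative for each of RES against naive, SUS against naive and SUS against RES, and 0 members passed the adjusted threshold in any of them. The smallest adjusted p was 0.0802, for Pfn1 in SUS against RES without SUS replicate 2. In cocaine against naive 72 of 96 kept the sign and 24 turned. Leaving out single libraries moved Actb between -0.26 and 0.64, Actg1 between -0.36 and 0.42, Tmsb4x between -0.56 and 0.58, Tmsb10 between -0.13 and 0.46, Cfl1 between -0.39 and 0.44 and Pfn1 between -0.20 and 0.50. With total counts Actg1 stood at 0.10 and Cfl1 at 0.08 there, with limma-voom Actb at -0.30 and Pfn1 at -0.00938, and with the replicate block Actb at -0.15. The cause of these turns was not tested.

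The replicate block called 0 genes in each comparison, as the fit without it did, and in SUS against RES it gave Actb 2.00 and Tmsb4x 2.63. Over all genes, unadjusted p lay under 0.05 for 361 genes in RES against naive, 1225 in SUS against naive, 2227 in SUS against RES and 541 in cocaine against naive with edgeR, for 264, 931, 1885 and 484 with DESeq2 and for 1671, 3225, 3367 and 1697 with limma-voom, each calling 0 after adjustment. With total counts as the scaling, 1 gene was called in SUS against RES, the predicted gene Gm28438 (adjusted p 0.0491, log2 fold change 2.83), which is no member and was looked up after its value was seen. Relative to TMM, that scaling moved the median log2 fold change of all genes by 0.247 in RES against naive, -0.223 in SUS against RES and 0.136 in cocaine against naive. Tmsb10, with 25 to 190 counts per library, is the member that depth limits most.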
